A study of Homo sapiens with 12 samples.

Results

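Expression was examined for 10 genes around the MiT/TFE transcription factors: the factors *TFEB*, *TFE3* and *MITF*, their folliculin regulators *FLCN*, *FNIP1* and *FNIP2*, the Rag GTPase genes *RRAGC* and *RRAGD*, and the targets *SQSTM1* and *GPNMB*. They were taken by symbol, and all 10 were found among the 60612 named rows of the count table. The set was chosen by function, but with earlier results of these data known, as were the gene lists below. Counts of calls among them are therefore not those of a set chosen blind. *GPNMB* was selected on its measured drug response, a rise under abemaciclib in both genotypes, so its values are given as a description with no test. The other 9 genes were tested. RNA came from ZR-75-1, an oestrogen receptor-positive human breast cancer cell line, edited with Cas9 and a non-targeting guide (sgControl) or a guide against *RB1*, the gene of the retinoblastoma protein Rb (RB1KO, *RB1* knockout). Knockout lines were grown from single sorted cells, and the sources used here do not say how many clones were sequenced, so a clone's own difference and the loss of *RB1* cannot be told apart. Cells were kept for 5 days in 500 nM abemaciclib, which blocks the Rb kinases CDK4 and CDK6, or in the solvent DMSO, with 3 replicates in each of the 4 groups.

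MiT/TFE factors are basic helix-loop-helix leucine zipper proteins that bind short E-box motifs in promoters. When nutrients are plentiful, Rag GTPases bring TFEB and TFE3 to mTORC1, the growth kinase complex on the lysosome, which phosphorylates them, and 14-3-3 proteins then hold them in the cytoplasm. Folliculin and its partners FNIP1 and FNIP2 switch RagC and RagD into the form that this step needs, and released factors transcribe lysosomal and autophagy genes as well as several of their own regulators. *GPNMB* encodes a transmembrane glycoprotein known from melanocytes, macrophages, osteoclasts and breast tumours. RNA levels do not show where the factors are in the cell or how they are phosphorylated.

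On GRCh38, with strand in brackets, the factor genes lie as *TFEB* at chr6:41683978-41736259 (minus), *TFE3* at chrX:49028726-49043410 (minus) and *MITF* at chr3:69739456-69968336 (plus). The folliculin genes are *FLCN* at chr17:17212212-17237188 (minus), *FNIP1* at chr5:131641714-131797017 (minus) and *FNIP2* at chr4:158769026-158908050 (plus). The Rag genes and targets are *RRAGC* at chr1:38838198-38859772 (minus), *RRAGD* at chr6:89364616-89412273 (minus), *SQSTM1* at chr5:179806398-179838078 (plus) and *GPNMB* at chr7:23235967-23275108 (plus).

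The promoters that hold an E-box studied in this family are shown. Of the 10 genes, 9 had a RefSeq window of 300 bases, from 250 before to 50 after a start site on GRCh38.p14, and 16 windows were searched on both strands for the 10-base CLEAR palindrome, for the E-boxes CACGTG and CACATG, and for their extended forms, which begin with one more T. Capitals mark every match, and sequences run 5′ to 3′ on the gene's strand.
*GPNMB*, chr7:23246525-23246824, plus strand: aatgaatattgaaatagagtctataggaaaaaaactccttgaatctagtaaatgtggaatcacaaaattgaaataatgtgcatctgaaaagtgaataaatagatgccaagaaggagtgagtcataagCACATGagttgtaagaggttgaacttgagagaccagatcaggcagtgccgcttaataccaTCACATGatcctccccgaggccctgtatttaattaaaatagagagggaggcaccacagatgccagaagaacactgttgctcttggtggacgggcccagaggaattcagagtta
*FNIP1*, chr5:131796968-131797267, minus strand: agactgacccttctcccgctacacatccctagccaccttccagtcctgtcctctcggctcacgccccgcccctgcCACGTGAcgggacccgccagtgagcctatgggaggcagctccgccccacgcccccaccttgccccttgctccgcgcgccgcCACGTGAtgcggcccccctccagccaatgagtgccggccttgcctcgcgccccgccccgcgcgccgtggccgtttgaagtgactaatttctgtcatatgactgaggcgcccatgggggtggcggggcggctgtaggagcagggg
*RRAGC*, chr1:38859723-38860022, minus strand: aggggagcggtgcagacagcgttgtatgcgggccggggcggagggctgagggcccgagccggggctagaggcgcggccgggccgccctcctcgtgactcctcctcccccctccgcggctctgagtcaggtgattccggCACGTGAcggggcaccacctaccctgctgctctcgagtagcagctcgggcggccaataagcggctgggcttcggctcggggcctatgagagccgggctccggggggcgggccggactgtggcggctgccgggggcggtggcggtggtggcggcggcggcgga
*FNIP2*, an internal start, chr4:158805589-158805888, plus strand: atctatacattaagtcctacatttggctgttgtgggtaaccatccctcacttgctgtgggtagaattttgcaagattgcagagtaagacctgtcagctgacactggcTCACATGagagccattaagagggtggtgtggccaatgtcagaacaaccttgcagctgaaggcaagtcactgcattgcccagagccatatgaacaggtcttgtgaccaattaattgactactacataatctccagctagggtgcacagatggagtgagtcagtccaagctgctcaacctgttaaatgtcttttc
The *FNIP1* window held CACGTG at 175 and 94 bases before the start, both followed by A, which reads TCACGTG on the other strand. The *RRAGC* window held the same letters at 112 bases. The *GPNMB* window held CACATG at 123 bases and TCACATG at 63 bases, and the internal *FNIP2* window held TCACATG at 143 bases before the start. The *GPNMB* window, from RefSeq, also lies inside the gene span given above, from GENCODE, which starts further upstream. CACATG lies within TCACATG, and CACGTG within TCACGTG. Such letters were common: among 35116 windows, 7.26% held CACGTG, 11.1% held CACATG, 3.71% held TCACGTG, 3.36% held TCACATG and 0.353% held the CLEAR palindrome, which holds CACGTG too. No window of *TFEB*, *TFE3*, *MITF*, *FLCN* or *SQSTM1* held a match, nor did the other *FNIP2* window, and *RRAGD* had no window. Genes with and without a match rose under abemaciclib, and a link between match and response was not tested. A match describes the sequence and does not show binding.

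The 12 libraries held 39907318 to 81636393 counts. The lowest raw count of any of the 10 genes was 86, for *FNIP2* in sgControl abemaciclib. *RB1* had 2252.3 to 4824.6 normalized counts, which are counts divided by the library's size factor, in the 6 sgControl libraries and 39.6 to 63.5 in the 6 knockout libraries. No pair of replicates agreed within sampling noise. The pair furthest apart was sgControl DMSO replicates 1 and 3, and a call that changed when either was left out is given with its value without it. The mitochondrial share of counts was 2.82 to 3.99% in sgControl DMSO and 7.22 to 8.53% in sgControl abemaciclib, and 3.78 to 4.13% and 5.44 to 7.39% in the knockout groups. It moved with the drug, and its part in the drug responses below was not tested. The labels do not say that replicates were separate cultures. The paper's figure legends give 3 independent biological replicates per condition for its RNA-seq, without naming these libraries. The p-values measure the spread between these libraries. Levels are mean ± SD over 3 libraries, log2 fold changes are ± SE, and adjusted p-values are from DESeq2 Wald tests with Benjamini-Hochberg adjustment, called under 0.05.

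In sgControl cells, abemaciclib raised *TFE3*, *MITF*, *FLCN*, *FNIP1*, *RRAGC* and *RRAGD* and lowered *FNIP2*. Thus 7 of the 9 tested genes were called, 6 higher and 1 lower, against 49.8% of all genes tested (25.0% higher, 24.8% lower). Scaled by total counts, the calls over all genes went from 5675 higher and 5630 lower to 4532 and 6779. In knockout cells *TFE3*, *FLCN*, *FNIP1*, *FNIP2*, *RRAGC* and *RRAGD* rose and none fell, 6 of 9 against a background of 30.0% (14.9% higher, 15.1% lower). Of the 9, 5 rose in both genotypes, beside 8.03% of all genes. The interaction, the knockout response minus the sgControl response, was called for *FNIP2* and *RRAGD* (positive) and for *TFE3* and *MITF* (negative), 4 of 9 beside 41.4% of all genes (21.1% positive, 20.3% negative). Total-count scaling moved that split from 4417 positive and 4251 negative to 5467 and 3098. Without sgControl DMSO replicate 1 the sgControl response was called for 9 of 9 (8 higher, 1 lower) and the interaction for 7 of 9 (3 positive, 4 negative). The calls over all genes move with the library left out as well. They ran from 10287 to 11367 for the sgControl response and from 8044 to 9321 for the interaction. The share of all genes in that 1 fit is not given here. The libraries of the groups compared did not overlap for 7 of the 9 tested genes in either drug response, beside 55.8% of all genes in sgControl and 49.4% in the knockout. In bulk RNA, fewer cells expressing a gene and less RNA per cell cannot be told apart.

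**Figure D1:**
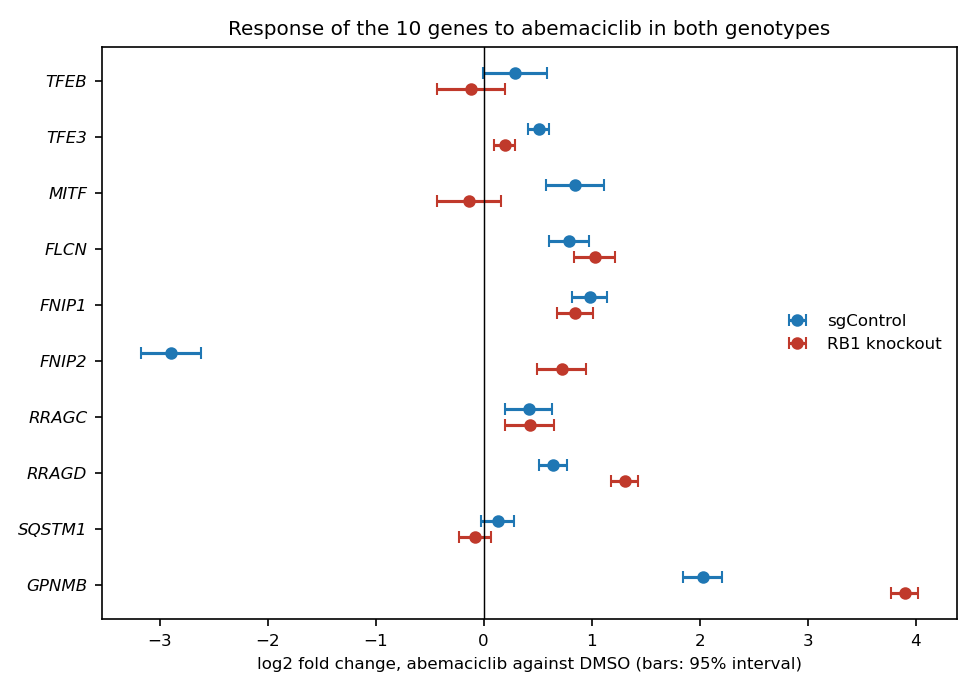
Log2 fold change of each of the 10 genes, abemaciclib against DMSO, in sgControl (blue) and *RB1*-knockout cells (red); points are DESeq2 estimates and bars 95% intervals. *FNIP2* lies at −2.90 in sgControl and at 0.72 in the knockout, *MITF* is above 0 in sgControl alone, and *FLCN*, *FNIP1* and *RRAGC* lie close together in both genotypes. The *GPNMB* responses chose the gene, so its bars are a description and no test.

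The factors differed in level and in response. *TFE3*, the most abundant of them, had 2714.5, 2748.1 and 2785.7 normalized counts in sgControl DMSO and 3973.3, 3876.2 and 3904.3 in sgControl abemaciclib. In the knockout it had 2953.8, 3197.3 and 3154.6 in DMSO and 3430.2, 3626.2 and 3616.1 in abemaciclib. Every treated library was above every DMSO library of its genotype. *TFE3* rose by 0.51 ± 0.05 in sgControl (adjusted p = 1.70e-24) and by 0.20 ± 0.05 in the knockout (adjusted p = 5.72e-04), and the responses differed by −0.31 ± 0.07 (adjusted p = 3.43e-05). Scaled by total counts in place of median of ratios, which moved the median log2 interaction of all genes by 0.14, the interaction of *TFE3* was −0.175 and was no longer called (adjusted p = 0.118).

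*MITF*, the melanocyte master regulator, was scarce and had the largest interaction estimate of the factors. Its normalized counts were 148.0, 154.2 and 129.8 in sgControl DMSO and 239.2, 279.8 and 254.6 in sgControl abemaciclib. The knockout gave 179.0, 160.9 and 145.5 in DMSO and 142.7, 159.0 and 139.2 in abemaciclib. The sgControl abemaciclib libraries stood above all 9 others, whose groups overlapped. *MITF* rose by 0.85 ± 0.14 in sgControl (adjusted p = 2.83e-09), the estimate in the knockout was −0.13 ± 0.15 (adjusted p = 0.561), and the interaction was −0.98 ± 0.20 (adjusted p = 6.88e-06).

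*TFEB*, the best studied lysosomal regulator of the family, passed no test of a drug response. It had 391.9, 349.0 and 314.3 normalized counts in sgControl DMSO and 441.8, 386.1 and 461.6 in abemaciclib, and 245.9, 312.9 and 287.6 against 329.5, 232.7 and 219.9 in the knockout. Groups overlapped within each genotype. The estimates were 0.29 (95% interval −0.007 to 0.59, adjusted p = 0.102) in sgControl and −0.12 (−0.435 to 0.195, adjusted p = 0.642) in the knockout, and the interaction was −0.41 (−0.845 to 0.022, adjusted p = 0.129). The sgControl response was called without sgControl DMSO replicate 1 (0.37, adjusted p = 0.0335), and without RB1KO abemaciclib replicate 1 (0.29, adjusted p = 0.0437). Without these same libraries the interaction was called too, at −0.49 (adjusted p = 0.0496) and −0.62 (adjusted p = 0.00659). *TFEC*, the remaining relative, had 0 to 9 raw counts in any library, and no fold is given.

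*TFE3* made up most of the family's RNA in every group. Per kilobase of exon, its share of *TFEB*, *TFE3* and *MITF* together was 90.11 ± 0.99% in sgControl DMSO, 90.42 ± 0.35% in sgControl abemaciclib, 92.04 ± 0.28% in knockout DMSO and 93.51 ± 1.09% in knockout abemaciclib.

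**Figure D2:**
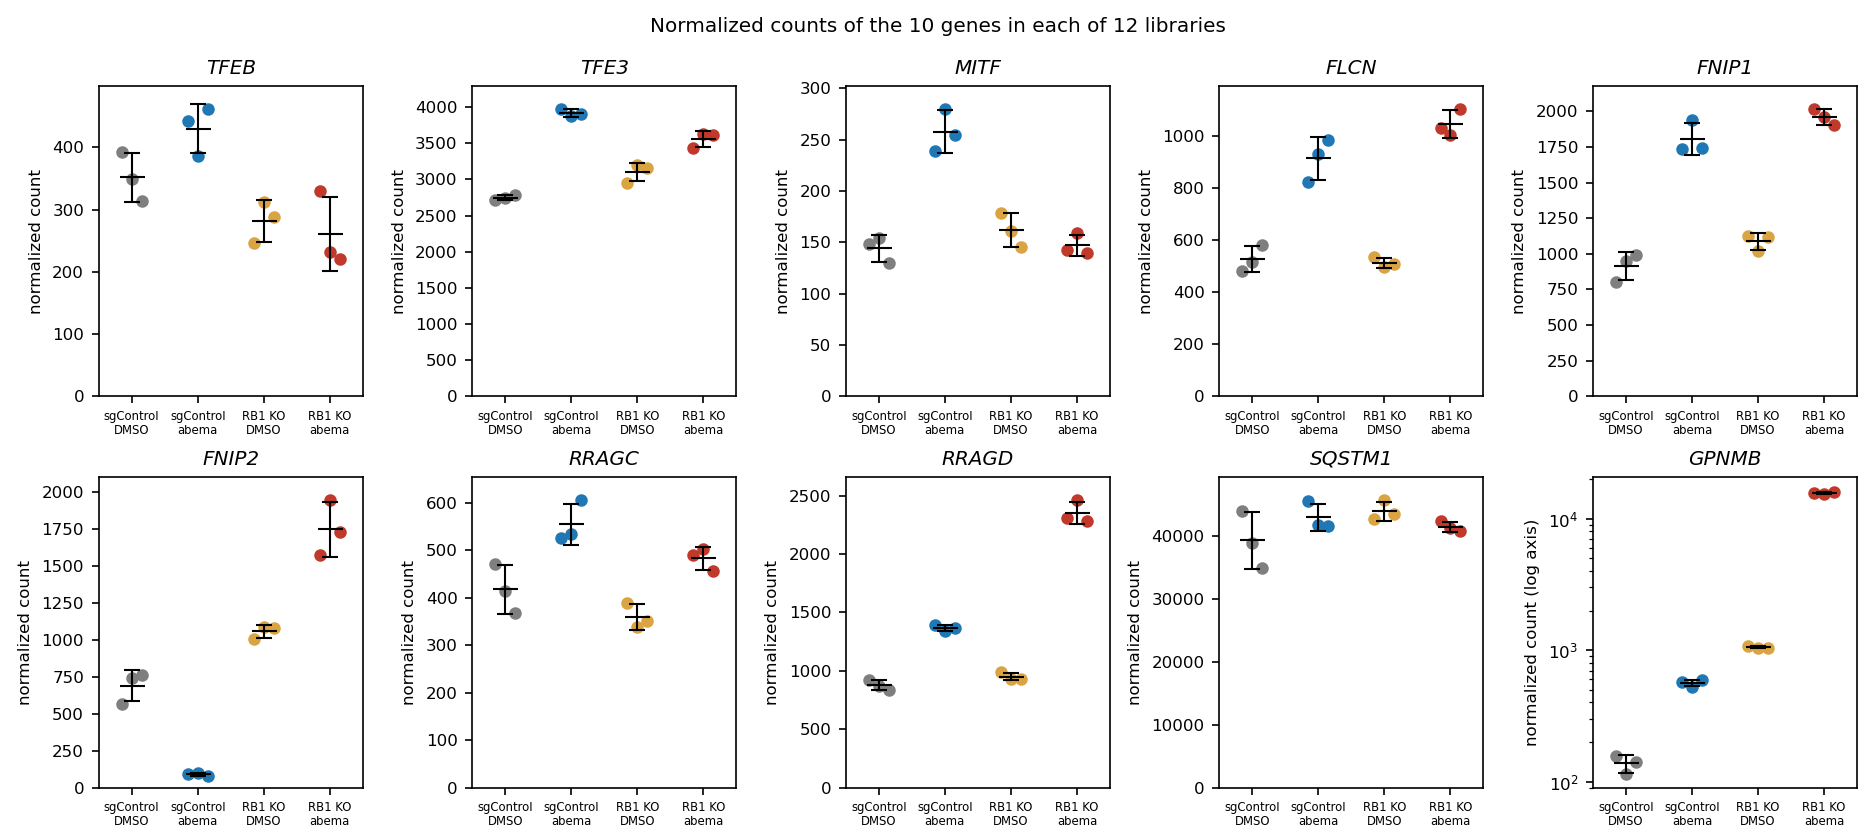
Normalized counts of the 10 genes in each of the 12 libraries, one panel a gene, with the mean and SD of each group of 3; the *GPNMB* panel has a log axis and the others start at 0. *FNIP2* drops to between 82.8 and 102.7 in sgControl abemaciclib and is highest in knockout abemaciclib, while *SQSTM1* lies between 34892.0 and 45560.2 in all 12 libraries.

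The folliculin complex split. *FLCN*, which encodes folliculin, had 482.2, 517.4 and 580.2 normalized counts in sgControl DMSO and 824.4, 931.6 and 985.8 in abemaciclib. In the knockout it had 535.6, 496.9 and 507.0 in DMSO and 1031.7, 1002.4 and 1103.5 in abemaciclib. All treated libraries exceeded all DMSO libraries. *FLCN* rose by 0.79 ± 0.09 in sgControl (adjusted p = 3.04e-16) and by 1.03 ± 0.10 in the knockout (adjusted p = 3.87e-24); the difference, 0.24 (95% interval −0.03 to 0.50), was not called (adjusted p = 0.16), though it was without sgControl DMSO replicate 1 (0.30, adjusted p rounded to 0.05). *FLCN* overlaps *MPRIP* on the opposite strand, which had 4392.0 to 6847.3 normalized counts, and how strand was used in counting is not given in the sources used here.

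*FNIP1*, whose product binds folliculin, followed *FLCN*. Its normalized counts were 805.2, 946.6 and 989.7 in sgControl DMSO and 1738.3, 1938.5 and 1742.5 in abemaciclib, then 1124.4, 1021.3 and 1120.9 in knockout DMSO and 2015.8, 1956.3 and 1902.4 in abemaciclib. Treated and untreated libraries did not overlap. *FNIP1* rose by 0.98 ± 0.08 in sgControl (adjusted p = 2.94e-30) and by 0.85 ± 0.09 in the knockout (adjusted p = 2.36e-21), and the difference was −0.13 (95% interval −0.37 to 0.10, adjusted p = 0.408).

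*FNIP2*, the paralog that can replace FNIP1 in the complex, went the other way in sgControl. It had 569.7, 739.5 and 759.7 normalized counts in sgControl DMSO and 92.7, 102.7 and 82.8 in abemaciclib. In the knockout, 1008.3, 1087.4 and 1077.7 in DMSO became 1571.9, 1941.5 and 1728.9 in abemaciclib. No groups overlapped. *FNIP2* fell 7.45-fold in sgControl (log2 −2.90 ± 0.14, adjusted p = 3.41e-92) and rose 1.65-fold in the knockout (0.72 ± 0.12, adjusted p = 6.47e-09), and the interaction was 3.62 ± 0.18 (adjusted p = 3.80e-86). Of 18546 genes tested in both, 3.54% were called lower in sgControl and higher in the knockout. Among the 11885 genes whose mean normalized count reached 100, *FNIP2* had rank 192 from the lowest response in sgControl.

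The makeup of the *FNIP* pair differed between groups. Per kilobase, *FNIP2* was 35.08 ± 1.20% of *FNIP1* plus *FNIP2* in sgControl DMSO and 3.56 ± 0.22% in sgControl abemaciclib. In the knockout the shares were 41.15 ± 2.09% and 39.03 ± 2.89%, and their libraries overlapped.

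**Figure D3:**
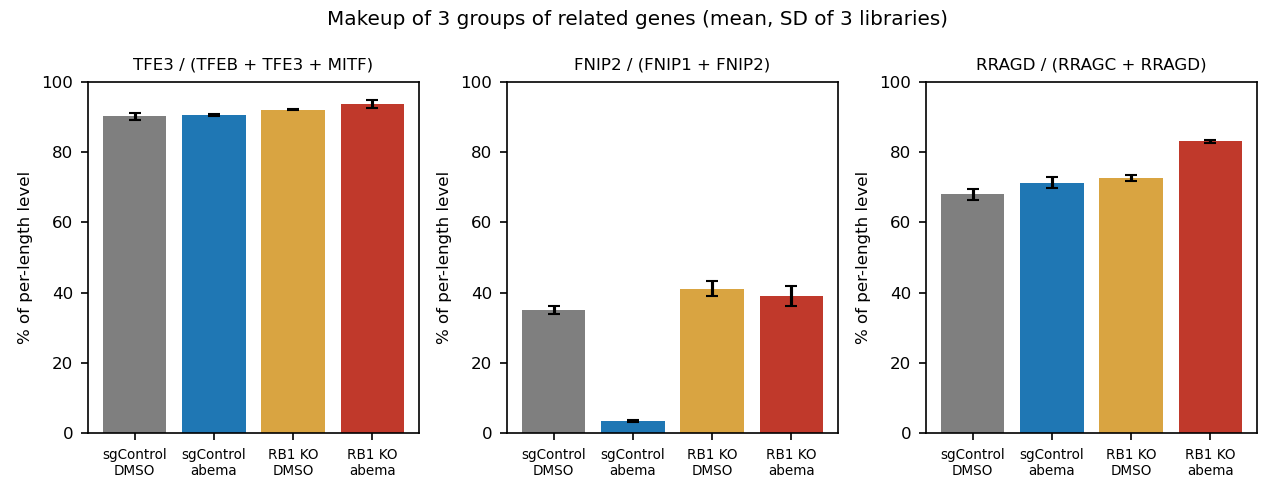
Share of the summed per-length level taken by *TFE3*, *FNIP2* and *RRAGD* within their families, in percent, as group means with SD over 3 libraries. *FNIP2* falls to 3.56% in sgControl abemaciclib, *RRAGD* reaches 83.01% in knockout abemaciclib, and *TFE3* stays at 90.11 to 93.51%.

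*RRAGC* and *RRAGD* rose in both genotypes. Their relative *RRAGA* was not called in either drug response, with 0.13 in sgControl (adjusted p = 0.0531) and −0.077 in the knockout (adjusted p = 0.366). *RRAGC* had 472.0, 414.2 and 367.9 normalized counts in sgControl DMSO and 525.9, 534.9 and 605.2 in abemaciclib, then 389.4, 338.2 and 351.3 in knockout DMSO and 490.4, 502.2 and 456.9 in abemaciclib. Treated libraries were above DMSO libraries in each genotype. The rises were 0.42 ± 0.11 (adjusted p = 4.28e-04) and 0.43 ± 0.11 (adjusted p = 0.00131), and their difference was 0.01 with a 95% interval of −0.30 to 0.33 (adjusted p = 0.964).

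*RRAGD*, a known MiT/TFE target whose product pairs with RagA or RagB as RagC does, responded more in the knockout. Its normalized counts were 924.4, 873.4 and 836.6 in sgControl DMSO and 1392.3, 1342.5 and 1369.8 in abemaciclib. Knockout DMSO libraries had 987.8, 931.0 and 934.5, and knockout abemaciclib libraries 2308.0, 2457.5 and 2285.7. The knockout abemaciclib libraries were above all others. *RRAGD* rose by 0.64 ± 0.07 in sgControl (adjusted p = 2.90e-22) and by 1.31 ± 0.07 in the knockout (adjusted p = 3.39e-86). The responses differed by 0.66 ± 0.09 (adjusted p = 4.27e-12). Per kilobase, *RRAGD* was 67.92 ± 1.63% of *RRAGC* plus *RRAGD* in sgControl DMSO, 71.23 ± 1.64% in sgControl abemaciclib, 72.67 ± 0.81% in knockout DMSO and 83.01 ± 0.44% in knockout abemaciclib. Of all 4 Rag genes, *RRAGA* and *RRAGB* included, it was 6.26 ± 0.11%, 7.77 ± 0.18%, 6.88 ± 0.38% and 15.67 ± 0.35% in the same order. These shares depend on the scaling by length, whose limit is given below.

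*SQSTM1*, which encodes the autophagy receptor p62, was the most abundant of the 10 genes and was not called in any comparison. It had 43877.8, 38892.9 and 34892.0 normalized counts in sgControl DMSO and 45417.0, 41633.1 and 41568.1 in abemaciclib, and 42579.5, 45560.2 and 43393.1 against 42273.9, 41197.9 and 40737.3 in the knockout. The sgControl DMSO libraries were the most spread, and overlapped those of sgControl abemaciclib. The drug response was 0.13 (95% interval −0.02 to 0.28, adjusted p = 0.154) in sgControl and −0.08 (−0.23 to 0.07, adjusted p = 0.459) in the knockout, and the interaction was −0.21 (−0.42 to −0.001, adjusted p = 0.104). Without sgControl DMSO replicate 1, the highest of its group, the sgControl response was 0.215 (adjusted p = 3.38e-04) and the interaction −0.30 (adjusted p = 2.80e-04), both called. With the knockout groups fitted alone, the knockout response was −0.09 (adjusted p = 0.0403). *SQSTM1* overlaps *MGAT4B* on the opposite strand, which had 11302.7 to 14381.2 normalized counts.

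*GPNMB* had the widest range of the 10 genes. Its normalized counts were 156.4, 114.6 and 141.7 in sgControl DMSO and 567.9, 528.7 and 589.3 in sgControl abemaciclib. The knockout libraries had 1084.8, 1042.3 and 1039.0 in DMSO and 15660.9, 15434.5 and 16083.3 in abemaciclib. The 4 groups followed each other without overlap, and sgControl abemaciclib stayed below knockout DMSO. The drug response was 4.08-fold in sgControl (log2 2.03 ± 0.09) and 14.9-fold in the knockout (3.90 ± 0.06), and the estimates differed by 1.87 ± 0.11. Knockout exceeded sgControl 7.66-fold in DMSO (2.94 ± 0.09) and 28.0-fold in abemaciclib (4.81 ± 0.07). From sgControl DMSO to knockout abemaciclib the means rose from 137.6 ± 21.2 to 15726.2 ± 329.3, a ratio of 114.3. These are the values that chose the gene, or share libraries with them. Among 11885 genes its response was rank 3 from the highest in the knockout and rank 174 in sgControl. *PMEL*, its closest relative, is a melanosome protein with 37.2 to 118.9 normalized counts in all libraries, and rose by 0.87 ± 0.27 in sgControl (adjusted p = 0.00279) and 0.99 ± 0.27 in the knockout (adjusted p = 0.00189), and these differed by 0.12 (95% interval −0.63 to 0.87, adjusted p = 0.851).

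Melanocyte and macrophage or osteoclast markers were checked because those cells express *GPNMB* and *MITF*. The melanocyte genes *TYR* and *MLANA* and the macrophage and osteoclast genes *AIF1*, *TYROBP* and *DCSTAMP* had 0 counts in all 12 libraries. The summed level of the 9 melanocyte markers was 39.7 to 84.7 normalized counts in sgControl DMSO, 121.3 to 135.7 in sgControl abemaciclib, 44.3 to 70.5 in knockout DMSO and 112.0 to 126.8 in knockout abemaciclib, with 3 to 5 markers at 0 in each group. *PMEL* made up most of it. *TYRP1*, another of them, went from a mean of 1.5 in sgControl DMSO to 26.4 in abemaciclib, and from 1.1 to 2.6 in the knockout. Its rise was called in sgControl (adjusted p = 3.58e-06) but not in the knockout (adjusted p = 0.532), and the interaction was not called (adjusted p = 0.0778). For the 12 macrophage and osteoclast markers the sums were 39.7 to 69.3, 126.6 to 162.1, 33.1 to 55.7 and 109.5 to 150.6, with 3 to 5 markers at 0; *ACP5*, the acid phosphatase of osteoclasts, went from means of 7.3 and 6.9 in DMSO to 78.5 and 75.9 in abemaciclib. *GPNMB* alone had 15434.5 or more in knockout abemaciclib. All 8 luminal breast markers had means above 100 in every group. In sgControl 5 (62.5%, beside 25.0% of all genes) were called higher and 3 (37.5%, beside 24.8%) lower. In the knockout 2 (25%, beside 14.9%) were higher and 2 (25%, beside 15.1%) lower. Of the 8, *KRT19* rose in sgControl (0.60 ± 0.10, adjusted p = 7.42e-09), *KRT18* fell there (−0.80 ± 0.11, adjusted p = 2.39e-13) and *ESR1*, the oestrogen receptor, rose (0.59 ± 0.10, adjusted p = 1.08e-08). In the knockout *ESR1* fell (−0.39 ± 0.10, adjusted p = 6.58e-04) and *KRT18* rose (0.36 ± 0.11, adjusted p = 0.00406), while *KRT19* had −0.10 ± 0.10 (adjusted p = 0.522; 0.0378 with only the knockout groups fitted).

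Levels between genes were set on a per-length scale, normalized counts per kilobase of merged exon. The labels name a whole-transcript kit but the study's general methods name a 3′ kit, with which counts would not scale with length. The order, and the per-kilobase shares given above, therefore hold only for the kit in the labels. In sgControl DMSO the order was *SQSTM1* (5205), *TFE3* (654), *RRAGD* (172), *FNIP1* (116), *RRAGC* (81.7), *FNIP2* (62.8), *FLCN* (53.8), *TFEB* (52.3), *GPNMB* (23.3) and *MITF* (19.4). The neighbours *FNIP2* and *FLCN*, *FLCN* and *TFEB*, and *GPNMB* and *MITF* overlapped between libraries. In sgControl abemaciclib *GPNMB* (95.2) followed *RRAGC* (109), overlapping *FLCN* (93.4), and *FNIP2* (8.45) came last. In knockout DMSO *GPNMB* (179) followed *RRAGD* (187) and overlapped it. In knockout abemaciclib it reached 2663, above *TFE3* (846) and below *SQSTM1* (5495), and no neighbours overlapped, *MITF* (19.8) being last.

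**Figure D4:**
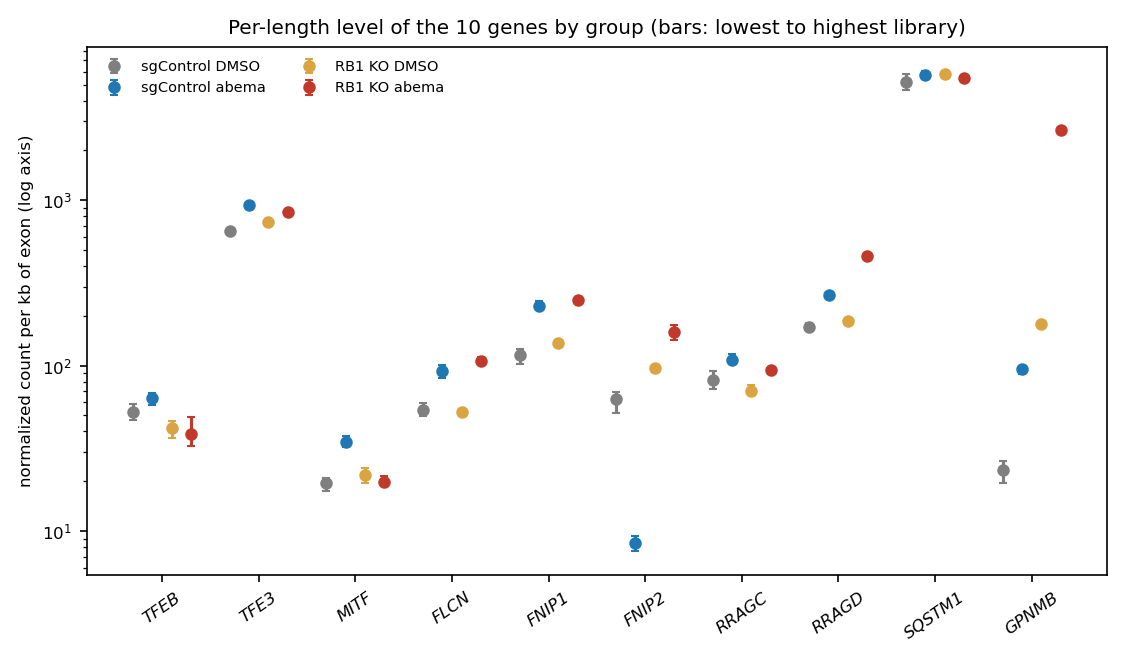
Normalized count per kilobase of exon on a log axis for the 10 genes in the 4 groups; points are means of 3 libraries and bars run from the lowest to the highest library. *GPNMB* climbs from 23.3 in sgControl DMSO to 2663 in knockout abemaciclib, and *FNIP2* dips to 8.45 in sgControl abemaciclib.

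Knockout and sgControl cells were also compared directly. In DMSO, 3 of the 9 tested genes were called, all higher in the knockout, beside 37.4% of all genes (19.2% higher, 18.2% lower). *FNIP2* was higher by 0.62 ± 0.12 (adjusted p = 1.30e-06), *FNIP1* by 0.25 ± 0.09 (adjusted p = 0.0133) and *TFE3* by 0.175 ± 0.05 (adjusted p = 0.00209). With only the DMSO groups in the fit, *FNIP2* alone was called, *FNIP1* having an adjusted p of 0.0778 and *TFE3* of 0.0554. The *FNIP1* call was also lost without sgControl DMSO replicate 1 (0.165, adjusted p = 0.074), RB1KO DMSO replicate 1 (adjusted p = 0.0739) or RB1KO DMSO replicate 3 (adjusted p = 0.0775). Total-count scaling ended the calls of *FNIP1* (0.22, adjusted p = 0.111) and *TFE3* (0.15, adjusted p = 0.0637) and called *SQSTM1* (0.145, adjusted p = 0.00948). *SQSTM1* was 0.16 ± 0.08 higher (adjusted p = 0.0812), and 0.25 without sgControl DMSO replicate 1 (adjusted p = 7.10e-05). *RRAGC* was at −0.215 ± 0.12 (adjusted p = 0.132), and at −0.305 without sgControl DMSO replicate 3 (adjusted p = 0.035). *TFEB* (−0.31), *RRAGD* (0.12), *MITF* (0.17) and *FLCN* (−0.04) had adjusted p-values of 0.105, 0.172, 0.388 and 0.781. Libraries did not overlap for 5 of the 9 tested genes, beside 46.3% of all genes.

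In abemaciclib, 5 of 9 were called, *FNIP2* and *RRAGD* higher and *TFEB*, *TFE3* and *MITF* lower in the knockout, beside 55.9% of all genes (28.5% higher, 27.4% lower). *FNIP2* was 18.8-fold higher (4.24 ± 0.14, adjusted p = 2.82e-200) and *RRAGD* 1.72-fold (0.78 ± 0.06, adjusted p = 3.27e-35). *MITF* was lower by −0.81 ± 0.14 (adjusted p = 3.14e-08) and *TFEB* by −0.72 ± 0.16 (adjusted p = 1.06e-05). *TFE3* was at −0.14 ± 0.05 (adjusted p = 0.00956), a call lost with total-count scaling, which moved the median of all genes by 0.11 (−0.02, adjusted p = 0.789), and without RB1KO abemaciclib replicate 1 (−0.11, adjusted p = 0.089). *FLCN* was 0.19 ± 0.09 higher (adjusted p = 0.064), and was called when only these groups were fitted with the replicate number as a block (0.21, adjusted p = 0.0465), a fit added after the data were seen. It was called under 7 alternatives in all, among them without sgControl DMSO replicate 1 (adjusted p = 0.0382) or replicate 3 (0.0469) and without sgControl abemaciclib replicate 3 (0.0353). *FNIP1* (0.12), *RRAGC* (−0.20) and *SQSTM1* (−0.05) were not called, with adjusted p-values of 0.236, 0.11 and 0.604. Libraries did not overlap for 7 of the 9 tested genes, beside 65.7% of all genes. The genotype and drug comparisons share libraries, and their values are set side by side only.

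The wider pathway was described through lists of genes, each by its count of calls and its median log2 fold change; scaling by total counts instead moved the median of all genes by −0.13 in the sgControl response. The shares of all genes called, against which each list is read, were 25.0% higher and 24.8% lower in sgControl, 14.9% and 15.1% in the knockout, and 21.1% positive and 20.3% negative for the interaction. Lysosomal genes with coordinated expression (enzymes, the proton pump and membrane proteins, 28 of 29 tested) were called higher for 24 (85.7%) and lower for 1 (3.57%) in sgControl, beside 25.0% and 24.8% of all genes, with a median of 0.64 beside 0.006. In the knockout 13 (46.4%) were higher and none lower, beside 14.9% and 15.1% (median 0.165, all genes 0.017). Their interactions were negative for 20 (71.4%, beside 20.3%) and positive for 2 (7.14%, beside 21.1%). With total-count scaling the sgControl counts were 22 higher and 3 lower. Calls over all genes in sgControl moved toward lower with that scaling too, as given above. The shares set beside the lists are those of the main fit, and the total-count splits here and below are not read against them. *CTSF*, a cathepsin protease, rose by 2.05 ± 0.09 (adjusted p = 2.83e-116) and 0.49 ± 0.09 (adjusted p = 5.72e-07), in sgControl and knockout. *NEU1*, the lysosomal sialidase, rose by 1.83 ± 0.07 (adjusted p = 3.14e-142) and 0.97 ± 0.07 (adjusted p = 9.44e-39). *GLB1*, the lysosomal beta-galactosidase, rose by 0.83 ± 0.06 (adjusted p = 7.13e-44) and 0.16 ± 0.06 (adjusted p = 0.032), a call lost with the replicate block (adjusted p = 0.0515) and without RB1KO DMSO replicate 2 or 3 (0.0689, 0.189) or RB1KO abemaciclib replicate 2 or 3 (0.101, 0.146). *PIP4P1*, a lipid phosphatase of lysosomes, fell by 0.32 ± 0.08 in sgControl (adjusted p = 8.64e-05) with 0.03 ± 0.08 in the knockout (adjusted p = 0.832).

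Autophagy genes were described in the same way. Of 33 genes of the autophagy machinery, 17 (51.5%) were higher and 9 (27.3%) lower in sgControl (median 0.28), the lower share being near the 24.8% of all genes and the higher share standing beside 25.0%. Of the 32 tested in the knockout, 2 (6.25%, beside 14.9%) were higher and 13 (40.6%, beside 15.1%) lower (median −0.10). Interactions were negative for 18 (54.5%, beside 20.3%) and positive for 6 (18.2%, beside 21.1%). With total-count scaling the sgControl counts were 14 higher and 11 lower, while calls over all genes moved toward lower too. *GABARAPL1*, an ATG8 protein of autophagosome membranes, had means of 861.9 and 2633.0 in sgControl DMSO and abemaciclib and of 885.6 and 426.1 in the knockout. It rose by 1.61 ± 0.07 in sgControl (adjusted p = 6.09e-104) and fell by 1.06 ± 0.09 in the knockout (adjusted p = 3.36e-33), an interaction of −2.66 ± 0.11 (adjusted p = 6.29e-122). *WIPI1*, which binds phosphoinositide on forming autophagosomes, rose by 1.94 ± 0.05 in sgControl (adjusted p = 1.89e-278) with 0.14 ± 0.07 in the knockout (adjusted p = 0.0961; 0.0487 without RB1KO DMSO replicate 2). *ATG12*, a ubiquitin-like conjugation factor, rose by 0.68 ± 0.06 (adjusted p = 1.98e-26) and 0.34 ± 0.07 (adjusted p = 3.92e-06). *ATG10*, the enzyme that attaches ATG12, fell by 0.53 ± 0.12 in sgControl (adjusted p = 2.42e-05) with 0.12 ± 0.12 in the knockout (adjusted p = 0.524).

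Of 14 selective autophagy receptors, *SQSTM1* among them, 9 (64.3%, beside 25.0% of all genes) were higher and none lower in sgControl (median 0.36). In the knockout 3 (21.4%, beside 14.9%) were higher and 6 (42.9%, beside 15.1%) lower (median −0.11). Interactions were negative for 9 (64.3%, beside 20.3%) and positive for none. Total-count scaling gave 8 higher and 2 lower in sgControl. *OPTN*, the receptor optineurin, rose by 1.45 ± 0.08 (adjusted p = 4.24e-66) and 1.40 ± 0.08 (adjusted p = 1.77e-59). *CCPG1*, a receptor for endoplasmic reticulum, rose by 0.32 ± 0.10 in sgControl (adjusted p = 0.00461), a call lost with total-count scaling (0.19, adjusted p = 0.132) and without sgControl abemaciclib replicate 2 (0.26, adjusted p = 0.0581). It fell by 0.475 ± 0.11 in the knockout (adjusted p = 2.58e-04). *NCOA4*, the ferritin receptor, rose by 0.30 ± 0.05 (adjusted p = 4.56e-10) and 0.15 ± 0.05 (adjusted p = 0.00526; 0.0662 without RB1KO abemaciclib replicate 3).

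**Figure D5:**
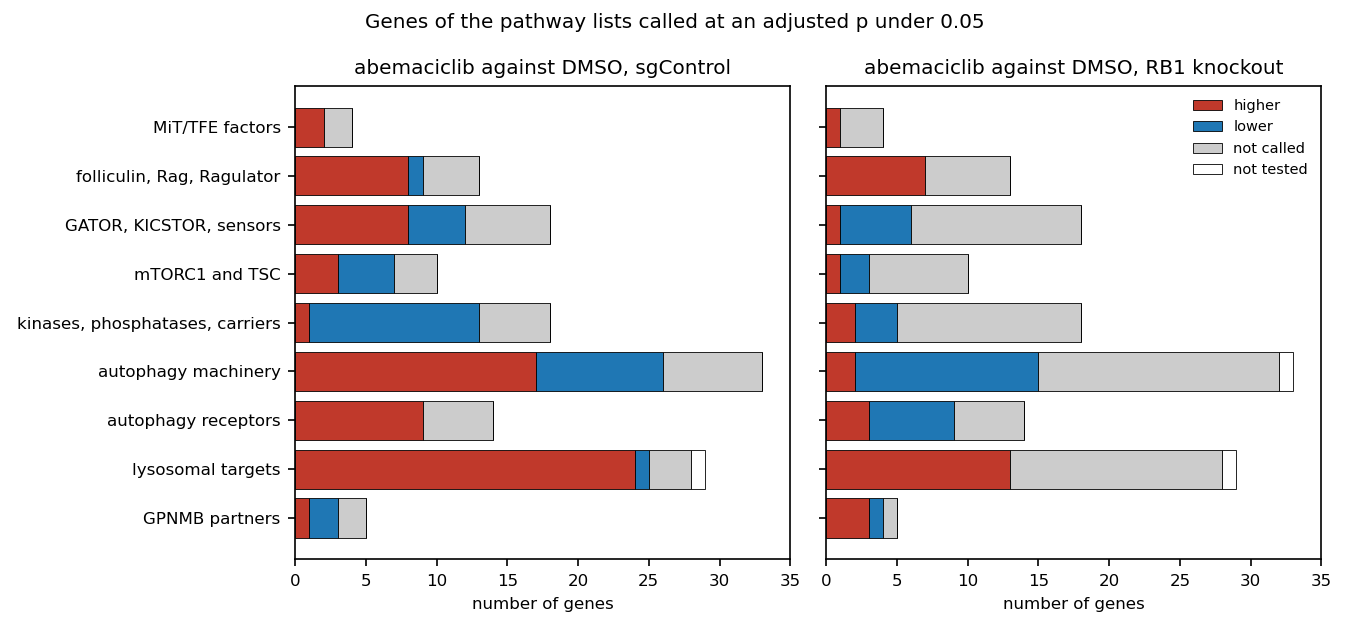
Number of genes in each list that were higher (red), lower (blue), not called (grey) or not tested (white) under abemaciclib at an adjusted p under 0.05, in sgControl (left) and *RB1*-knockout cells (right). Lysosomal genes are higher for 24 in sgControl and 13 in the knockout, and the autophagy machinery has 17 higher in sgControl and 13 lower in the knockout.

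Upstream of the factors, the folliculin, Rag and Ragulator list of 13 genes had 8 (61.5%, beside 25.0% of all genes) higher and 1 (7.69%, beside 24.8%) lower in sgControl (median 0.42), or 8 and 3 with total-count scaling. In the knockout 7 (53.8%, beside 14.9%) were higher and none lower (median 0.40), and 5 of the 13 are among the 10 genes above. *RRAGB*, which encodes a RagA-type partner of RagC and RagD, rose by 1.82 ± 0.09 (adjusted p = 1.03e-87) and 0.55 ± 0.10 (adjusted p = 1.38e-06). The Ragulator scaffold genes *LAMTOR3* and *LAMTOR1* rose in sgControl by 0.81 ± 0.07 (adjusted p = 2.78e-29) and 0.35 ± 0.08 (adjusted p = 7.11e-05); in the knockout *LAMTOR3* rose by 0.40 ± 0.07 (adjusted p = 1.34e-06) and *LAMTOR1* had −0.06 ± 0.08 (adjusted p = 0.663). Of 18 GATOR, KICSTOR and amino acid sensor genes, which control the Rag GTPases, 8 (44.4%, beside 25.0%) were higher and 4 (22.2%) lower in sgControl (median 0.17), the lower share being near that of all genes. In the knockout 1 (5.56%, beside 14.9%) was higher and 5 (27.8%, beside 15.1%) lower (median −0.09). With total-count scaling the sgControl split was 7 and 6. *SESN3*, a sestrin, rose by 1.39 ± 0.11 (adjusted p = 9.50e-36) and 1.36 ± 0.11 (adjusted p = 1.98e-33), and *SESN1* fell by 1.05 ± 0.11 (adjusted p = 3.27e-21) and 0.29 ± 0.11 (adjusted p = 0.0246). The knockout call of *SESN1* was lost with total-count scaling (adjusted p = 0.0636) and without RB1KO DMSO replicate 1 or 2 (0.127, 0.0607) or RB1KO abemaciclib replicate 1 or 3 (0.11, 0.0796). *CASTOR2*, an arginine sensor relative, fell by 0.80 ± 0.15 in the knockout (adjusted p = 7.29e-07) with 0.02 ± 0.14 in sgControl (adjusted p = 0.94), a value whose sign depended on the scaling.

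Of 10 genes of mTORC1 and its TSC brake, 3 were higher and 4 lower in sgControl (median −0.04), beside 25.0% and 24.8% of all genes, and 1 was higher and 2 lower in the knockout (median −0.007), beside 14.9% and 15.1%. In a list of 10 these shares are near those of all genes, the lower share in sgControl being furthest from them. *DEPTOR*, an mTOR inhibitor, rose by 1.78 ± 0.07 (adjusted p = 4.36e-137) and 0.82 ± 0.09 (adjusted p = 1.70e-19). *RHEB*, the GTPase that activates mTORC1, fell by 0.77 ± 0.08 in sgControl (adjusted p = 3.35e-21) with 0.08 ± 0.08 in the knockout (adjusted p = 0.483). *RPTOR*, the subunit that recruits substrates, fell by 0.28 ± 0.08 in the knockout (adjusted p = 0.0043; 0.0542 without RB1KO DMSO replicate 2) with −0.02 ± 0.08 in sgControl (adjusted p = 0.897).

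Kinases, phosphatases and carrier proteins that act on the factors, 18 genes, had 1 (5.56%, beside 25.0% of all genes) higher and 12 (66.7%, beside 24.8%) lower in sgControl (median −0.50). In the knockout 2 (11.1%) were higher and 3 (16.7%) lower (median −0.001), near the 14.9% and 15.1% of all genes. Their interactions were positive for 12 (66.7%, beside 21.1%) and negative for 1 (5.56%, beside 20.3%). *SFN*, the 14-3-3 sigma protein, fell by 1.88 ± 0.10 in sgControl (adjusted p = 2.93e-85) with 0.18 ± 0.09 in the knockout (adjusted p = 0.133). That knockout response was called higher with only the knockout groups fitted (adjusted p = 2.86e-04), with total-count scaling (0.0312), and without sgControl DMSO replicate 1 (0.00218) or replicate 3 (0.0407). *CDK4*, a target of abemaciclib that also phosphorylates TFEB, had −0.12 ± 0.08 in sgControl (adjusted p = 0.182) and rose by 0.39 ± 0.08 in the knockout (adjusted p = 4.54e-06). Its sgControl response was called lower with total-count scaling (−0.25, adjusted p = 1.43e-04) and without sgControl DMSO replicate 3 (−0.20, adjusted p = 0.00948). *MAP4K3*, a kinase of the amino acid response, rose by 0.54 ± 0.10 in sgControl (adjusted p = 4.50e-07) with 0.12 ± 0.10 in the knockout (adjusted p = 0.417). Among 5 binding partners and proteases of GPNMB, 1 was higher and 2 lower in sgControl, beside 25.0% and 24.8% of all genes, and 3 were higher and 1 lower in the knockout, beside 14.9% and 15.1%; so short a list says little beside those shares. *SDC4*, a heparan sulfate receptor, rose by 0.72 ± 0.08 (adjusted p = 9.58e-17) and 0.43 ± 0.08 (adjusted p = 3.40e-06). *ITGA5*, an integrin subunit, fell by 0.77 ± 0.09 in the knockout (adjusted p = 2.35e-15) with −0.01 ± 0.09 in sgControl (adjusted p = 0.941), and *ADAM10*, a protease that sheds membrane proteins, fell by 0.23 ± 0.10 in sgControl (adjusted p = 0.0388) with 0.08 ± 0.10 in the knockout (adjusted p = 0.609). The *ADAM10* call was lost with only the sgControl groups fitted (adjusted p = 0.0592) and without sgControl DMSO replicate 2 or 3 (0.131, 0.207) or sgControl abemaciclib replicate 1 or 3 (0.109, 0.178).

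Genes whose pattern over the 12 libraries was most like that of *GPNMB* were found by Pearson's r of log2(normalized count + 1) among 11885 genes of that level. They were *OAS1* (r = 0.988), *NLRC5* (0.986), *CDC42EP3* (0.985), *PARP12* (0.981) and *DDIT4* (0.980). *OAS1* had means of 38.5 ± 2.3, 77.8 ± 2.3, 127.4 ± 8.7 and 328.7 ± 20.3 in sgControl DMSO, sgControl abemaciclib, knockout DMSO and knockout abemaciclib. *DDIT4* had 852.0 ± 40.3, 1387.3 ± 210.8, 1720.0 ± 61.1 and 3180.7 ± 262.8 in that order. Both climbed through the groups in the order of *GPNMB*, over a narrower range. Nearest to *RRAGD* were *SOCS3* (0.977), *H2AC8* (0.977) and *BRI3* (0.970), to *MITF* *RTN4RL1* (0.969), *MAPK14* (0.968) and *ZNF441* (0.967), and to *TFEB* *VRK3* (0.956), *DNAL4* (0.933) and *GPR108* (0.932). Among the 10 genes the highest r values were those of *FLCN* with *FNIP1* (0.96), *FLCN* with *RRAGD* (0.90) and *TFE3* with *FNIP1* (0.90), and the lowest that of *MITF* with *FNIP2* (−0.89). The points are 12 libraries in 4 groups, so these values mostly restate the group means.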

How the data were processed

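Raw counts per gene were deposited by the authors as one table of 12 libraries, made with STAR 2.7.5b and featureCounts 2.0.1 on hg38 per the labels, with GENCODE 35 per the study's methods. Counts were not normalized in the table. The labels name a directional whole-transcript kit and the study's general methods a 3′ kit, and how strand and multimapping reads were counted is not given in the sources used here. Of 60656 rows, 44 had no symbol and held 0% of counts; the other 60612 were used.

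The 12 libraries were fitted in DESeq2 1.42.0 (R 4.3.3) with one group term, median-of-ratios scaling, Wald tests and Benjamini-Hochberg adjustment at 0.05, after the study's use of DESeq2. The tests were checked on counts simulated with a log2 change of 1 in 200 of 22161 genes. DESeq2 made 22 false calls among 220 for the sgControl response and 18 among 194 for the interaction. For the abemaciclib genotype difference it made 27 among 224. These DESeq2 shares exceed the 0.05 set. The alternative edgeR made 11 among 210, 11 among 194 and 18 among 216. Far more genes were called in these data than were changed in the simulation. Alternatives were edgeR 4.0.16 (quasi-likelihood), TMM and total-count factors, a filter at a mean raw count of 10, a replicate block, only the groups compared, and leaving out each library. Coordinates and exon lengths came from GENCODE 44, and promoters from RefSeq. Figures were drawn with matplotlib 3.10.9.

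The genes and lists were chosen with earlier results of these data known. From each list, and for each drug response, the text names the called gene with the highest and the one with the lowest log2 fold change among genes with a mean of at least 100, leaving out the 10 genes themselves (30 genes in all, 1 of which is not reported here). It also names *TFEC* and *PMEL* as relatives, and the genes of highest r to *GPNMB* (5 genes) and to *TFEB*, *MITF* and *RRAGD* (3 each). Replicate numbers come from the labels. Deviations of same-numbered libraries from their group means, over 11885 genes, correlated at 0.15, 0.26 and 0.11 between the genotypes in abemaciclib. Between the sgControl groups the values were 0.25, 0.22 and −0.08. The main fit did not use the numbers as pairs. They entered only the alternatives with a replicate block, 1 of which was limited to the abemaciclib groups.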

Additional observations from a re-analysis of the deposited data

Results flagged for a closer look

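Each gene here had a drug response that differed between the genotypes, by the DESeq2 interaction test at an adjusted p under 0.05. Values are the knockout minus the sgControl log2 response. Of all genes tested, 41.4% passed this test (21.1% positive, 20.3% negative). The list genes had been picked for the highest or lowest called drug response in these same libraries. Large differences were thereby favoured, and their adjusted p-values are a description only. *FNIP2* (3.62, adjusted p = 3.80e-86) fell in one genotype and rose in the other. The remaining tested members with such a difference were *RRAGD* (0.66, adjusted p = 4.27e-12), *MITF* (−0.98, adjusted p = 6.88e-06) and *TFE3* (−0.31, adjusted p = 3.43e-05), the last of them lost with total-count scaling.

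Among upstream regulators the difference was negative for *RRAGB* (−1.27, adjusted p = 5.92e-19), *LAMTOR1* (−0.40, adjusted p = 0.00168), *LAMTOR3* (−0.41, adjusted p = 2.71e-04), *CASTOR2* (−0.82, adjusted p = 2.45e-04), *DEPTOR* (−0.96, adjusted p = 1.22e-16) and *MAP4K3* (−0.41, adjusted p = 0.0125, or 0.237 with total-count scaling). It was positive for *SESN1* (0.76, adjusted p = 3.16e-06), *RHEB* (0.85, adjusted p = 4.10e-13), *SFN* (2.06, adjusted p = 5.05e-52) and *CDK4* (0.51, adjusted p = 1.12e-05).

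Among autophagy genes the value was −2.66 for *GABARAPL1* (adjusted p = 6.29e-122), −1.80 for *WIPI1* (adjusted p = 1.27e-98), −0.79 for *CCPG1* (adjusted p = 1.33e-06), −0.34 for *ATG12* (adjusted p = 6.36e-04, or 0.171 with total-count scaling) and 0.64 for *ATG10* (adjusted p = 4.81e-04). Lysosomal genes gave −1.55 for *CTSF* (adjusted p = 2.04e-33), −0.86 for *NEU1* (adjusted p = 4.27e-16), −0.67 for *GLB1* (adjusted p = 3.35e-14) and 0.35 for *PIP4P1* (adjusted p = 0.00405). The GPNMB partners *SDC4* and *ITGA5* had −0.28 (adjusted p = 0.0437, lost with TMM or total-count factors and, at 0.0501 to 0.125, without any one of 9 libraries) and −0.75 (adjusted p = 2.37e-08). The luminal genes *KRT19*, *ESR1* and *KRT18* had −0.69 (adjusted p = 3.97e-06), −0.98 (adjusted p = 2.65e-11) and 1.15 (adjusted p = 1.13e-13).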

How the results depend on the processing

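For the 9 tested genes, a recomputed value was taken as the same if it kept its direction and side of the threshold. For *GPNMB*, which had no test, it was the same if it kept its direction and moved by no more than its spread. By these rules 863 values were the same, 18 came to pass the threshold, 10 no longer did and 8 changed sign. The remaining 1, the abemaciclib genotype difference of *GPNMB* with total-count scaling (4.92), moved by more than its spread. With only the DMSO groups fitted, 1 of the 9 was called between genotypes in place of 3, a count given without the share of all genes in that fit. With 1 library left out, the interaction was called for 4 to 7, beside 8044 to 9321 of all genes. The 7 were reached without sgControl DMSO replicate 1. Total-count scaling turned the interaction of *FNIP1* (0.005), *SESN3* (0.107) and *OPTN* (0.084), the abemaciclib genotype difference of *SQSTM1* (0.065) and the sgControl response of *CASTOR2* (−0.118; −0.017 with TMM factors and −0.005 with only the groups compared). None of these passed the test in either setting. Leaving out 1 library at a time, the sgControl response ranged from −0.089 to 0.118 for *CASTOR2*, −0.075 to 0.063 for *RPTOR* and −0.075 to 0.021 for *ITGA5*, the knockout response from −0.017 to 0.062 for *PIP4P1*, the interaction from −0.08 to 0.104 for *RRAGC* and −0.094 to 0.069 for *SESN3*, and the DMSO genotype difference from −0.104 to 0.034 for *FLCN*. The cause was not tested. For *GPNMB* the responses ranged over all alternatives from 1.89 to 2.11 in sgControl and from 3.88 to 3.92 in the knockout.

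A fit on all groups with the replicate number as a block called 11059, 5381, 8515, 6031 and 11761 genes for the sgControl and knockout responses, the interaction and the genotype difference in DMSO and abemaciclib, against 11305, 5571, 8668, 6259 and 12039 without the block. The 9 tested genes had 7, 6, 4, 3 and 5 calls with and without it. Outside the abemaciclib genotype comparison the same-numbered libraries correlated at −0.25 to 0.25, with both signs in each comparison. Whether the numbers mark pairs is not known. The SEs of log2 fold changes set what could be called: they were 0.137 to 0.203 for *MITF* and 0.152 to 0.221 for *TFEB*, 0.076 to 0.107 for *SQSTM1* and 0.049 to 0.07 for *TFE3*, an order that does not follow their counts.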
